A study of Mus musculus with 17 samples.

Results

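The comparison described here is the genotype-by-stage interaction: the Kit-W/sh minus Kit-B6 difference in colon tumors, minus the same difference in preneoplastic colon, for each gene of an immune panel. It uses all 17 of the 17 samples of the study and asks whether the difference between mast cell-deficient and control mice changed between the stages. Kit-B6 mice are C57BL/6 animals with intact Kit, and Kit-W/sh mice carry the W-sash allele, an inversion upstream of Kit that leaves its coding sequence intact and adult animals without most mast cells. The allele also touches interstitial cells of Cajal and melanocytes, so mast cell deficiency is not its only known effect. All mice received intraperitoneal azoxymethane, an alkylating carcinogen used to raise colon tumors in mice, and no untreated group was analysed here. The 6 Kit-B6 and 6 Kit-W/sh tumors came from mice at postnatal week 32, given 6 injections in 6 weeks and killed 18 weeks afterwards. The 3 Kit-B6 and 2 Kit-W/sh preneoplastic samples came from mice at postnatal week 14, given 3 injections in 3 weeks and killed 3 weeks afterwards. Stage, age, number of injections and tissue therefore cannot be told apart. The labels do not say whether each sample was a different mouse or whether tissue was pooled, so p-values measure only the spread between these samples.

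Mast cells are tissue-resident granulocytes that depend on the receptor Kit and release proteases, histamine and cytokines. The panel also covers the type I interferon program, in which cells that sense viral or self nucleic acid switch on antiviral genes such as the oligoadenylate synthetases, and the class I and checkpoint genes read by lymphocytes. In colon these transcripts come from epithelium, infiltrating leukocytes and lymphoid aggregates. In whole tissue, fewer cells of a type and less RNA per cell cannot be told apart.

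Total counts per library ran between 616009 and 815973 before tumors and between 616554 and 1399902 in tumors. The 2 measured epithelial genes, Epcam and Muc1, summed to between 22307 and 34848 CPM (counts scaled to library size with TMM factors) in all libraries. The 3 measured genes of differentiated colonocytes and goblet cells summed to 65935 to 156549 CPM in preneoplastic colon and 15200 to 49816 CPM in tumors, with the highest tumor value in Kit-B6 tumor 4. The library labelled Kit-W/sh tumor 2 had 459.6 CPM of the mast cell protease Cpa3, above every other library and against its label. Values without this library, or without Kit-B6 tumor 4, stand beside the results in which either was far from its group.

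No gene showed a change of the genotype difference that passed the test. Of 988 panel genes, 869 had enough counts to be tested, and edgeR's quasi-likelihood test called 0 interactions at an adjusted p under 0.05 (0% of genes tested, smallest adjusted p = 0.515). The unadjusted p was under 0.05 for 63 genes (7.25%), where chance alone gives 43 over 869 tests, and 42 of them were positive (4.83%) and 21 negative (2.42%). A positive interaction means that Kit-W/sh was higher relative to Kit-B6 in tumors than in preneoplastic colon. DESeq2 called 1 gene, the class I gene H2-T24 (0.104% of the 963 genes it adjusted, 74 at an unadjusted p under 0.05), and limma-voom called 0 (69 at an unadjusted p under 0.05). The same edgeR fit called 0 genes (0%) for the genotype difference in tumors and 0 (0%) for that in preneoplastic colon, with 117 (13.5%) and 60 (6.90%) at an unadjusted p under 0.05. DESeq2 called 31 of 906 genes (3.42%) for the difference in tumors and 6 of 963 (0.623%) for that in preneoplastic colon.

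The intervals of the interaction were wide. The median standard error of a log2 difference was 0.28 in tumors, 0.45 in preneoplastic colon and 0.53 for the interaction. For 232 of the 857 genes with a standard error (27.1%), the 95% interval of the interaction lay within 2-fold in either direction, and for 530 (61.8%) within 4-fold. For the remaining genes the interval reached past 4-fold, so a change of that size was not excluded.

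**Figure D1:**
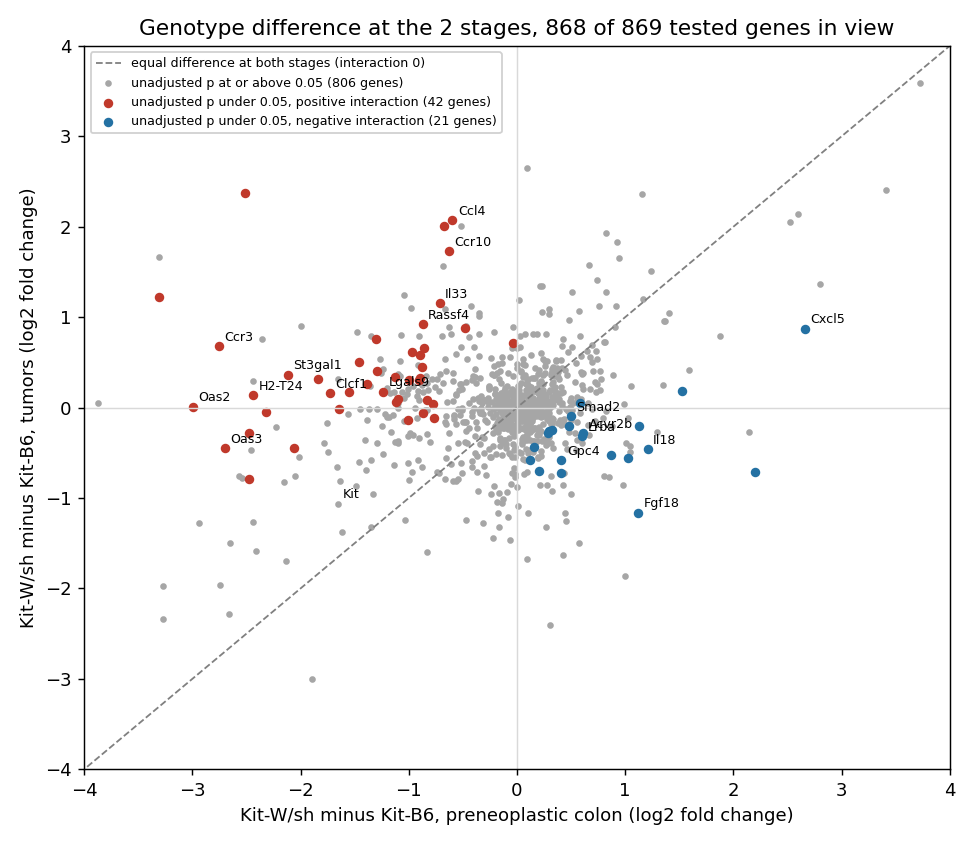
Kit-W/sh minus Kit-B6 log2 fold change in preneoplastic colon (horizontal axis, 3 against 2 samples) and in tumors (vertical axis, 6 against 6 samples), 1 point per tested gene. Points on the dashed diagonal have an interaction of 0, and most of the 42 red points (positive, unadjusted p under 0.05) lie left of the vertical line, lower in preneoplastic Kit-W/sh colon and near 0 in tumors.

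Genes with a small interaction p mostly had their larger genotype difference in preneoplastic colon. Among the 63 genes at an unadjusted p under 0.05, 50 had the larger absolute genotype difference in preneoplastic colon, against 56.2% of all tested genes, and 51 had opposite signs at the 2 stages, against 46.5% of all. Of these 63 genes, 42 were lower and 21 higher in preneoplastic Kit-W/sh colon. The preneoplastic differences also carry the larger standard errors given above, and selection on p chose these genes, so the counts are a description. Across the 869 genes, the 2 genotype differences, which share no library, had a Pearson r of 0.24, where genes are not independent replicates. The tumor minus preneoplastic changes of the 2 genotypes, which also share no library, had an r of 0.87 and the same sign for 734 genes (84.5%). A stage change was called in 357 genes in Kit-B6 (41.1%) and 345 in Kit-W/sh (39.7%), and all 243 genes called in both (68.1% and 70.4% of each list) moved the same way.

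H2-T24 encodes a nonclassical MHC class I molecule and had the smallest interaction p. H2-T24 stood at 233, 1081 and 619 CPM in Kit-B6 preneoplastic samples 1 to 3 and at 123 and 114 CPM in the 2 Kit-W/sh preneoplastic samples. In tumors it ran from 48.3 to 120.3 CPM in Kit-B6 (median 74.3) and from 58.2 to 136 CPM in Kit-W/sh (median 80). The genotypes did not overlap in preneoplastic colon, where Kit-B6 was higher, and overlapped in tumors. Here and below, such separation in the small preneoplastic groups was not compared with its share over all tested genes. Most genes named were also chosen by an interaction p that uses the same values. The log2 genotype difference was -2.44 ± 0.51 (SE) in preneoplastic colon and 0.14 ± 0.32 in tumors, an interaction of 2.58 ± 0.60. The adjusted p of the interaction was 0.515 in edgeR and 0.0372 in DESeq2. Within genotypes, H2-T24 fell by 3.05 on the log2 scale from preneoplasia to tumor in Kit-B6 (edgeR adjusted p = 2.62e-05), and its change of -0.47 in Kit-W/sh did not pass (edgeR adjusted p = 0.409). Here and below, a stage change that passed in Kit-B6 and not in Kit-W/sh, or the reverse, is not a test of their difference. The interaction is that test, and the Kit-W/sh stage change rests on 2 preneoplastic samples. Without Kit-B6 preneoplastic sample 1, the lowest preneoplastic Kit-B6 value of H2-T24, the interaction was 2.94 and passed (edgeR adjusted p = 0.0269). Near-identical H2 genes can share amplicon reads, so its identity within that family is uncertain.

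Lgals9, galectin-9, a lectin that binds the checkpoint receptor encoded by Havcr2, came next. Lgals9 stood at 4667, 8026 and 8034 CPM in Kit-B6 preneoplastic colon and 2753 and 3106 CPM in Kit-W/sh. Tumors held 2873 to 4696 CPM in Kit-B6 (median 3794) and 3009 to 5861 CPM in Kit-W/sh (median 4206). All 3 Kit-B6 preneoplastic samples lay above both Kit-W/sh samples, whereas the tumor ranges overlapped. The interaction was 1.41 ± 0.35 (edgeR adjusted p = 0.515), from differences of -1.24 ± 0.30 in preneoplastic colon and 0.18 ± 0.19 in tumors. Lgals9 fell by 0.86 from preneoplasia to tumor in Kit-B6 (edgeR adjusted p = 0.00704) and was 0.56 ± 0.27 apart in the other direction in Kit-W/sh, which did not pass (edgeR adjusted p = 0.118).

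**Figure D2:**
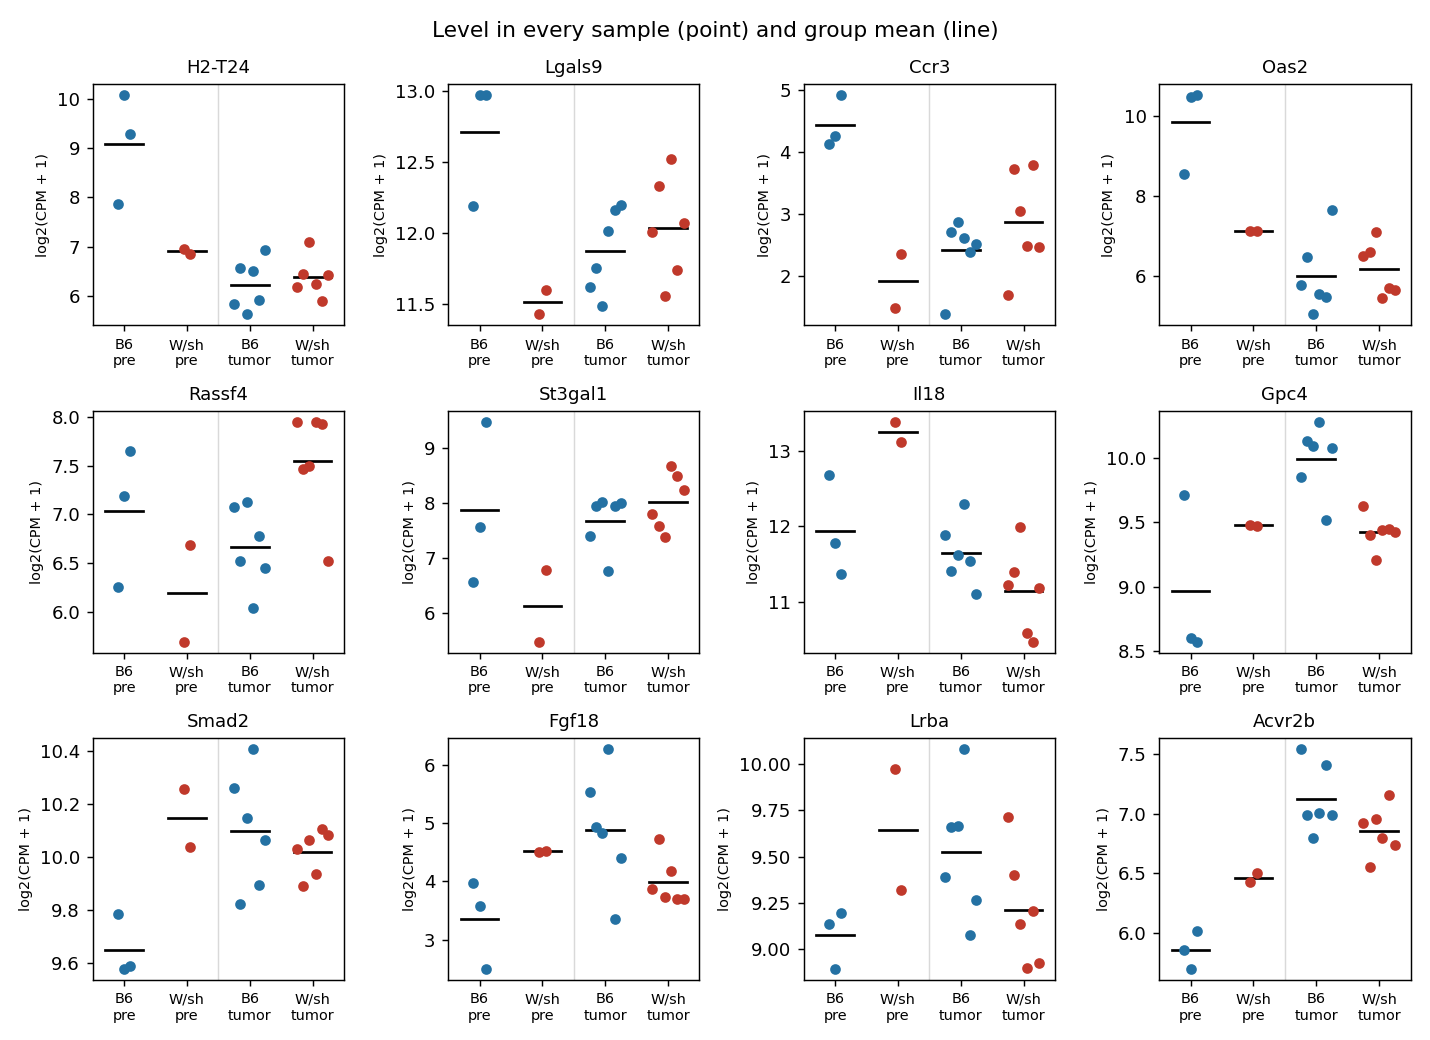
Level of 12 genes in every sample as log2(CPM + 1), with a point per sample and a line at the group mean: preneoplastic (pre) at left and tumor at right, Kit-B6 in blue and Kit-W/sh in red. H2-T24, Lgals9, Ccr3 and Oas2 are separated by genotype in preneoplastic colon and mixed in tumors, and Gpc4 is separated in most tumors and mixed in preneoplastic colon.

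Lgals9, Bst2 and Oas3, among the 12 positive genes with the smallest p, have a promoter match to the interferon-stimulated response element, and so does B2m, the light chain of class I molecules. The RefSeq windows (GRCm38.p6) run from 250 bases before to 50 bases after the annotated start, printed 5′ to 3′ on the gene's strand with each match to the motif (GAAA, any 2 bases, GAAA, on either strand) in capitals. They are shown because each of these genes lay lower in both preneoplastic Kit-W/sh samples than in all 3 Kit-B6 samples. How many of all tested genes lay so was not counted, and these genes were picked by an interaction p from the same values. Lgals9 is at chr11:78984875-78985174 (minus strand), Bst2 at chr8:71537423-71537722 (minus), Oas3 at chr5:120777610-120777909 (minus) and B2m at chr2:122147437-122147736 (plus).
Lgals9: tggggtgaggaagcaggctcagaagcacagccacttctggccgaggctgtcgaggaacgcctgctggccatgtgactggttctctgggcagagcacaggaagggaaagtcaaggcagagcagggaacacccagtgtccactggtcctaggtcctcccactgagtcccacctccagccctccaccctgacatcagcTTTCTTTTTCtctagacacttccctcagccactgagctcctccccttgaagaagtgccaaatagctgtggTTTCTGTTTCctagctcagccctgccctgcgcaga
Bst2: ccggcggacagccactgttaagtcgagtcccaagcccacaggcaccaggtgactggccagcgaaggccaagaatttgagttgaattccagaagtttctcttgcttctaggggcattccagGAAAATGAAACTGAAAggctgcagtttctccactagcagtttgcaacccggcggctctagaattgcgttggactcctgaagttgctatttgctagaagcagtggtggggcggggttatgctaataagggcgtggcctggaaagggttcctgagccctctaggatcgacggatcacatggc
Oas3: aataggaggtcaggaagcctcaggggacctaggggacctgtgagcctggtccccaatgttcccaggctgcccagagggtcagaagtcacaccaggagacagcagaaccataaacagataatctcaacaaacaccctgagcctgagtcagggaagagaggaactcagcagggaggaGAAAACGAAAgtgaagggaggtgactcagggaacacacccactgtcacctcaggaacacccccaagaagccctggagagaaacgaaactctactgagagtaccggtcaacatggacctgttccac
B2m: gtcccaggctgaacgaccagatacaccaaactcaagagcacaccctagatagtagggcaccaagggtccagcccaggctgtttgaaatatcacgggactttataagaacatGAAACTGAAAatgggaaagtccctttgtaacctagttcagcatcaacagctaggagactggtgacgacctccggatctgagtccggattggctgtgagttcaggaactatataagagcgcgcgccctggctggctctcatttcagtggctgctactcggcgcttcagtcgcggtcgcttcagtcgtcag
In Lgals9 the first match, on the opposite strand, is separated from the annotated start by 45 bases, and another lies past the start. Bst2 has 2 overlapping matches, 120 and 114 bases away, Oas3 has 1 at 65 bases and B2m has 1 at 129 bases. Of the 12 positive genes, 7 matched an entry in the promoter table, and 3 of these 7 had the motif (42.9%); H2-T24 and Oas2 had no entry. Of the 12 negative genes with the smallest p, 11 matched and 0 had it. The contrast was smaller in the longer lists. At an unadjusted p under 0.05, 7 of 29 matched positive genes (24.1%) and 1 of 16 matched negative genes (6.25%) had the motif. The motif was present in 3.44% of all 32851 promoter windows of this length, in 7.06% of the 652 matched panel genes tested and in 50% of the 18 matched interferon response genes. Of the other motifs searched, the NF-kB motif was in 4 of the 7 positive genes (57.1%; Ccr3, Ebi3, Bst2 and Acacb), 0 of the 11 negative genes and 11.7% of the matched genes tested. The gamma-activated site (TTC, any 3 bases, GAA) was in 1 of 7 (14.3%; Bst2), 0 of 11 and 10.4%, so a higher share in the positive genes was not limited to the interferon motif. In all promoter windows these 2 motifs had shares of 4.51% and 8.3%. At an unadjusted p under 0.05, the NF-kB motif was in 27.6% of matched positive and 6.25% of matched negative genes. For the gamma-activated site these shares were 20.7% and 0%. A match to such letters is a description of the window and not a binding site.

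The interferon response genes had mostly positive interactions. Of 22 tested members, 15 were positive (68.2%, beside 50.2% of all tested genes) and 7 negative. At an unadjusted p under 0.05, 5 were positive and none negative (22.7% of the list, beside 7.25% of all tested genes). These were Oas2, Oas3, Oas1b, Bst2 and Ifitm3. Oas1a, Oas1g and Oasl1 are also members and were positive, so the counts of this list overlap with those of the oligoadenylate synthetases below. Of the list, 0 passed edgeR's adjusted threshold. The median interaction of the list was 0.78, beside 0.00 over all genes. The 5 members at an unadjusted p under 0.05 became 2 without Kit-B6 preneoplastic sample 2, where the median was 0.44. They became 2 without Kit-W/sh preneoplastic sample 1 (median 0.83) and 3 without Kit-W/sh preneoplastic sample 2 (median 0.80), and 15 of 22 members were positive in each of these fits. Without Kit-B6 tumor 6 there were 8 (median 1.10). The list's median genotype difference was -0.999 in preneoplastic colon and -0.16 in tumors.

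The oligoadenylate synthetases make the second messenger that activates RNase L against viral RNA. Oas2 stood at 376, 1429.7 and 1485 CPM in Kit-B6 preneoplastic colon and at 137 and 138 CPM in Kit-W/sh. In tumors it ran from 31.5 to 200.5 CPM in Kit-B6 (median 49.3) and from 42.4 to 134 CPM in Kit-W/sh (median 69.8). Both preneoplastic Kit-W/sh values lay below all Kit-B6 values of that stage, and in tumors the Kit-W/sh range lay inside the Kit-B6 range. The difference was -2.99 ± 0.71 in preneoplastic colon and 0.01 ± 0.46 in tumors, an interaction of 3.00 ± 0.85 (edgeR adjusted p = 0.66). Oas2 fell by 3.84 on the log2 scale from preneoplasia to tumor in Kit-B6 (edgeR adjusted p = 8.51e-05), and in Kit-W/sh the change of -0.84 did not pass (edgeR adjusted p = 0.286).

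Oas3 was at 495, 1123 and 1294 CPM in Kit-B6 preneoplastic colon and at 172 and 128 CPM in Kit-W/sh. Its tumor range was 48.3 to 364 CPM in Kit-B6 (median 119) and 59.9 to 175 CPM in Kit-W/sh (median 104). As for Oas2, the genotypes were apart before tumors and overlapped in them, with an interaction of 2.25 ± 0.78 (edgeR adjusted p = 0.66). All 7 tested oligoadenylate synthetases had positive interactions, with a median of 1.34. Of them, 3 (42.9%; Oas2, Oas3 and Oas1b at 1.65 ± 0.73) were at an unadjusted p under 0.05. Over all tested genes, 50.2% were positive and 7.25% were at that p. Members of the Oas1 family are near-identical and can share reads, so the members of this list are not separate observations. Most of them are also counted in the interferon response list above.

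Bst2, tetherin, holds budding virus at the cell surface. It stood at 1348, 4636 and 3218 CPM in Kit-B6 preneoplastic colon and at 986 and 1107 CPM in Kit-W/sh, while tumors held 747 to 2523 CPM in Kit-B6 (median 1042) and 1159 to 2112 CPM in Kit-W/sh (median 1451). Kit-B6 sample 1 lay nearest to the Kit-W/sh preneoplastic pair, and the tumor groups overlapped. The interaction was 1.73 ± 0.62 (edgeR adjusted p = 0.66), and without Kit-B6 preneoplastic sample 2, the highest, it was 1.28. Ifitm3, which blocks viral entry, had an interaction of 1.20 ± 0.49 on a different course between stages: it rose from preneoplasia to tumor in both genotypes, by 2.11 in Kit-B6 (edgeR adjusted p = 0.000319) and by 3.31 in Kit-W/sh (edgeR adjusted p = 0.000136).

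The regulators of the program did not share one direction. Irf7, which amplifies interferon production, was at 3853, 4538 and 5016 CPM in Kit-B6 preneoplastic colon and at 997 and 1160.2 CPM in Kit-W/sh, and at medians of 937 CPM and 597 CPM in Kit-B6 and Kit-W/sh tumors. Its average was lower in Kit-W/sh at both stages, with log2 differences of -2.05 ± 0.63 in preneoplastic colon and -0.75 ± 0.40 in tumors, and its interaction was 1.30 ± 0.75 (edgeR adjusted p = 0.733). Irf1, a transcription factor induced by interferons, had an interaction of -0.49 ± 0.35. Gbp2, a GTPase induced by interferon gamma, was the most negative of the list at -1.40 ± 1.15. The 4 tested interferon receptor and signalling genes were the interferon gamma receptor genes Ifngr1 and Ifngr2 and the kinase genes Jak1 and Jak2. All were negative, with a median of -0.30 and none at an unadjusted p under 0.05. No type I interferon receptor gene was among them.

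**Figure D3:**
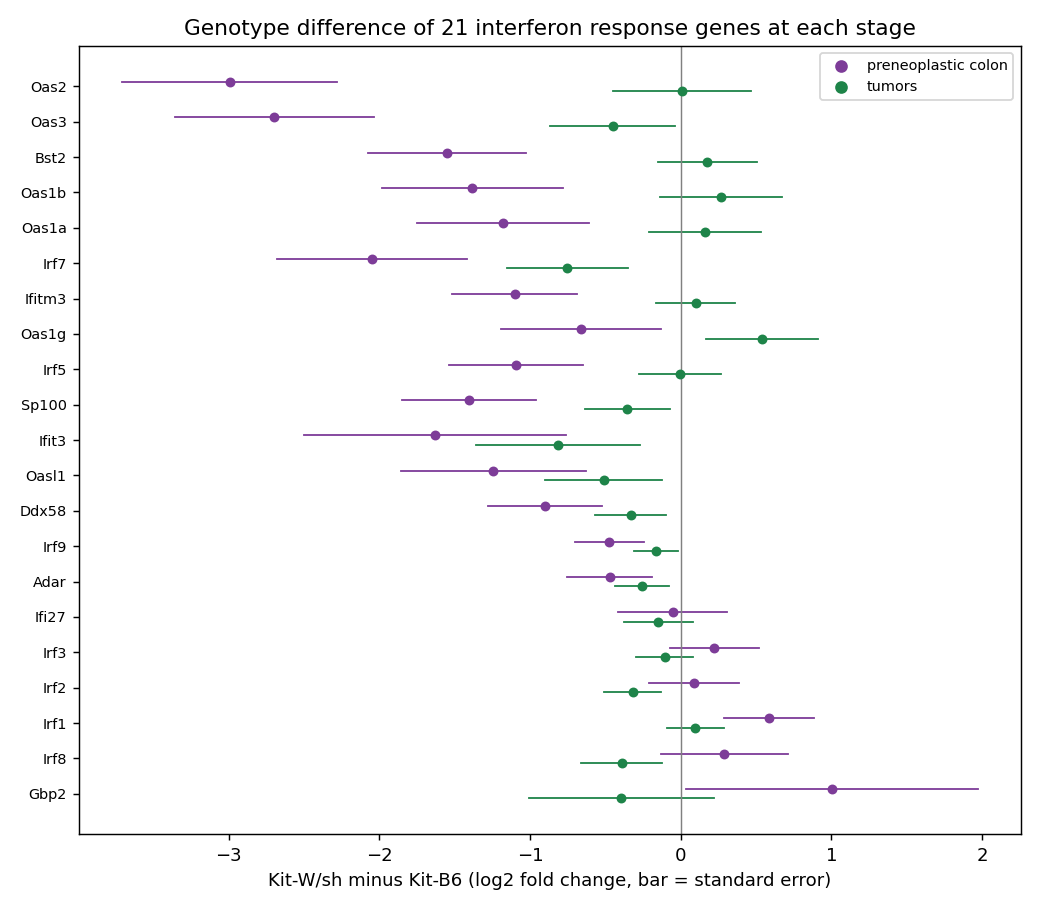
Kit-W/sh minus Kit-B6 log2 fold change of 21 of the 22 tested interferon response genes in preneoplastic colon (purple) and in tumors (green), with the standard error as a bar, ordered by interaction. Oas2 and Oas3 lie at -2.99 and -2.70 in preneoplastic colon and at 0.01 and -0.45 in tumors, while Irf1, Irf2, Irf3, Irf8 and Gbp2 lie right of 0 in preneoplastic colon.

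B2m was among the most abundant transcripts, at 51224, 52014 and 46164 CPM in Kit-B6 preneoplastic colon and at 27695 and 28349.5 CPM in Kit-W/sh. Tumors held 8457 to 19240.1 CPM in Kit-B6 (median 13044) and 9906 to 25049 CPM in Kit-W/sh (median 12217). The preneoplastic genotypes were apart with little spread inside each, and the tumor groups overlapped. The interaction was 0.92 ± 0.42 (edgeR adjusted p = 0.66), and B2m fell from preneoplasia to tumor in both genotypes, by 1.90 in Kit-B6 (edgeR adjusted p = 8.38e-05) and by 0.98 in Kit-W/sh (edgeR adjusted p = 0.0186). The 17 tested class I presentation genes were divided, with 9 positive (52.9%, beside 50.2% of all tested genes) and 8 negative interactions and a median of 0.09. H2-T24 and B2m were the 2 at an unadjusted p under 0.05 (11.8%, beside 7.25% of all tested genes). When any 1 Kit-B6 preneoplastic sample was left out, 1 member was at that p. The same held without any 1 of Kit-B6 tumors 1 to 5 or Kit-W/sh tumors 1 to 3. It also held under RLE and upper-quartile scaling and without robust estimation, while DESeq2, limma-voom and no scaling gave 2. B2m was close to the threshold in the main fit (edgeR unadjusted p = 0.0481). The list median was -0.16 without the library labelled Kit-W/sh tumor 2 and -0.11 without Kit-B6 preneoplastic sample 1.

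Lymphocyte marker sums were compared with these values in preneoplastic colon. The summed level of the B cell list (12 measured genes) was 2063, 5907 and 3096 CPM in Kit-B6 preneoplastic samples 1 to 3, while the Kit-W/sh pair had 1968 and 1866 CPM, and that of the T cell list (15 genes) was 860, 2170 and 1248 CPM against 1174 and 935 CPM. In tumors the B cell sums ran from 1344 to 3412 CPM in Kit-B6, highest in Kit-B6 tumor 2, and 813 to 1793 CPM in Kit-W/sh. No B cell or T cell list member was at 0 in all libraries. The B cell sums of the 3 Kit-B6 samples lay above both Kit-W/sh samples, and the T cell sums overlapped, with Kit-B6 sample 1 lowest of the 5. The mean of log2(CPM + 1) over each list, in which abundant members weigh less, ordered the samples otherwise. For B cell genes it was 4.97, 8.32 and 6.87 in Kit-B6 and 5.61 and 4.72 in Kit-W/sh, so the genotypes overlapped. For T cell genes it was 5.21, 6.58 and 5.65 against 5.49 and 5.18, with Kit-W/sh sample 2 lowest. Kit-B6 preneoplastic sample 2 was highest on both lists as well as for H2-T24, Bst2, B2m and Ltb, whereas Oas2, Oas3, Lgals9 and Irf7 were highest in sample 3. The part of lymphocyte content in the interferon and class I values was not tested. Of 11 tested B cell genes, 8 had positive interactions (72.7%, beside 50.2% of all tested genes; median 0.44), with none at an unadjusted p under 0.05. The B cell median was -0.58 without Kit-B6 preneoplastic sample 2 and 2.38 without Kit-B6 tumor 2. In the latter fit 5 positive members were at that p, beside 54 positive genes of all 869 tested.

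T cell genes were positive in 14 of 15 tested members, with a median interaction of 0.81, beside 50.2% positive and a median of 0.00 over all tested genes. The share at an unadjusted p under 0.05, 1 member (6.67%), was near the 7.25% of all tested genes, and 0 passed the adjusted threshold. That member was Lck, the kinase that starts T cell receptor signalling. Lck was at 108, 361 and 186 CPM in Kit-B6 preneoplastic colon and at 127 and 114 CPM in Kit-W/sh, and at 45.2 to 158 CPM in Kit-B6 tumors (median 87.7) and 111 to 210.2 CPM in Kit-W/sh tumors (median 149). The genotypes overlapped at both stages, with an interaction of 1.52 ± 0.61 (edgeR adjusted p = 0.66). Without Kit-B6 preneoplastic sample 2, the T cell median was 0.21, with 11 of 15 positive and none at an unadjusted p under 0.05, so the counts of this list depended on that library. The median was 0.45 without the library labelled Kit-W/sh tumor 2.

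Among checkpoint and regulatory T cell genes, 10 of 15 were positive (median 1.22), with 2 positive and 1 negative at an unadjusted p under 0.05 (20%, beside 7.25% of all tested genes). Besides Lgals9 these were Lag3, an inhibitory receptor that binds class II molecules, and Ikzf2, the Helios transcription factor of regulatory T cells. Lag3 was at 12.8, 18.1 and 21.7 CPM in Kit-B6 preneoplastic colon and at 7.24 and 6.88 CPM in Kit-W/sh, against medians of 5.07 CPM in Kit-B6 tumors and 8.38 CPM in Kit-W/sh tumors. Its interaction was 2.06 ± 0.85, from only 9 counts over both preneoplastic Kit-W/sh libraries, and that of Ikzf2 was -1.33 ± 0.63 (edgeR adjusted p = 0.66 for both). The checkpoint receptor gene Pdcd1 had an interaction of 2.32 ± 1.46 (edgeR adjusted p = 0.766). Foxp3 (1.00 ± 1.16) and Cd274 (-0.46 ± 0.56) had standard errors above the size of their interaction. Without Kit-B6 preneoplastic sample 2 the median of this list was 0.52. The lymphotoxin Ltb, a TNF family ligand of lymphoid tissue, shows the same dependence: at 31.2, 484 and 119 CPM in Kit-B6 preneoplastic colon and 76 and 42.7 CPM in Kit-W/sh, its interaction was 2.15 ± 0.90 with that library and 0.64 without it.

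Chemokine receptors were positive in 10 of 12 tested members, with a median of 1.27, and 2 were at an unadjusted p under 0.05 (16.7%), beside 50.2% positive and 7.25% at that p over all tested genes. Without Kit-B6 preneoplastic sample 2, 7 of 11 were positive (median 1.02). Ccr3, the eotaxin receptor of eosinophils, was at 16.5, 18.1 and 29.5 CPM in Kit-B6 preneoplastic colon and at 1.81 and 4.13 CPM in Kit-W/sh, where it gave 4 counts in all. In tumors it ran from 1.62 to 6.31 CPM in Kit-B6 (median 4.93) and from 2.26 to 12.8 CPM in Kit-W/sh (median 5.98). The interaction of 3.43 ± 0.96 (edgeR adjusted p = 0.561) thus rests on a group near the floor of 3 counts per library. Ccr3 fell by 2.21 from preneoplasia to tumor in Kit-B6 (edgeR adjusted p = 0.00369) and did not pass in Kit-W/sh, where the estimate was 1.23 (edgeR adjusted p = 0.202).

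All 4 measured eosinophil and basophil genes had positive interactions, with a median of 2.04 and 1 at an unadjusted p under 0.05 (Ccr3, 25%). Over all tested genes, 50.2% were positive and 7.25% were at that p, and Ccr3 is the gene near the floor described above. Prg2, the granule major basic protein, was at 11, 59.9 and 66.7 CPM in Kit-B6 preneoplastic colon and at 21.7 and 24.8 CPM in Kit-W/sh, and its interaction was 2.08 ± 1.06 (edgeR adjusted p = 0.66). The list summed to 60.5, 149 and 174 CPM in Kit-B6 preneoplastic colon and to 54.3 and 46.8 CPM in Kit-W/sh. Kit-W/sh was below Kit-B6 in this sum before tumors, and in tumors the ranges of 29.9 to 111 CPM in Kit-B6 and 42.3 to 114 CPM in Kit-W/sh overlapped.

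Ccr10, the receptor for mucosal chemokines on plasma cells and T cells, had its larger genotype difference in tumors. It was at 53.2, 67.1 and 126 CPM in Kit-B6 preneoplastic colon and at 52.5 and 53.7 CPM in Kit-W/sh, and ran from 7.36 to 50.3 CPM in Kit-B6 tumors (median 19.1) and from 41.1 to 119 CPM in Kit-W/sh tumors (median 72.2). The tumor groups overlapped through the highest Kit-B6 tumor, and the preneoplastic groups were close. The interaction was 2.36 ± 0.82 (edgeR adjusted p = 0.66), from -0.63 ± 0.69 in preneoplastic colon and 1.73 ± 0.44 in tumors. Ccr10 fell by 1.89 between stages in Kit-B6 (edgeR adjusted p = 0.00917) and the change of 0.47 in Kit-W/sh did not pass (edgeR adjusted p = 0.566).

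Ccl4, a chemokine that draws monocytes and T cells, was at 11, 12.7 and 15.5 CPM in Kit-B6 preneoplastic colon and at 9.04 and 8.26 CPM in Kit-W/sh. It ran from 9.26 to 79.0 CPM in Kit-B6 tumors (median 52.1) and from 84.5 to 448 CPM in Kit-W/sh tumors (median 154), without overlap. The share of all tested genes separated in this way in tumors was not counted. The interaction was 2.67 ± 1.02 (edgeR adjusted p = 0.66), and Ccl4 rose from preneoplasia to tumor in both genotypes, by 1.86 in Kit-B6 (edgeR adjusted p = 0.0339) and by 4.53 in Kit-W/sh (edgeR adjusted p = 0.00138). Only 11 counts lay behind the preneoplastic Kit-W/sh value.

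The interleukin 1 family was divided by member. Of 9 tested genes, 5 were positive and 4 negative, and 3 positive (Il1a, Il33 and the decoy receptor Il1r2) and 1 negative (Il18) were at an unadjusted p under 0.05 (44.4%, beside 7.25% of all tested genes). The 3 positive members became 0 without Kit-B6 preneoplastic sample 2 and 1 without Kit-B6 preneoplastic sample 3. They became 0 in limma-voom, and 1 without Kit-B6 tumor 2, without Kit-B6 tumor 3 or without Kit-W/sh tumor 5. RLE, upper-quartile and no scaling each gave 2, and DESeq2 gave 3. The alarmin Il33 was at 36.7, 92.5 and 31.0 CPM in Kit-B6 preneoplastic colon and at 27.1 and 37.2 CPM in Kit-W/sh, and at 169 to 662 CPM in Kit-B6 tumors (median 455) and 430.3 to 1739 CPM in Kit-W/sh tumors (median 891). Its interaction was 1.87 ± 0.71 (edgeR adjusted p = 0.66), against 1.20 without Kit-B6 preneoplastic sample 2 and 1.70 without Kit-B6 tumor 4, the lowest Kit-B6 tumor. Il1a was at 12.4 to 12.8 CPM in Kit-B6 and at 6.88 and 9.04 CPM in Kit-W/sh preneoplastic colon. These values did not overlap but lay near the floor of 3 counts per library, 4.13 to 5.43 CPM in the Kit-W/sh samples. The separation is therefore limited by depth. The log2 difference of Il1a was -0.67 ± 1.12 in preneoplastic colon and 2.00 ± 0.49 in tumors, and its interaction was 2.68 ± 1.22. Il1b, with 1.11 ± 1.01, was above 0.05 in unadjusted p.

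Il18, an epithelial cytokine released by the inflammasome, ran the other way and had the smallest p of the negative genes. It was at 6566, 3523 and 2646 CPM in Kit-B6 preneoplastic colon and at 10719 and 8876 CPM in Kit-W/sh. Tumors held 2202 to 5032 CPM in Kit-B6 (median 3074) and 1421 to 4084 CPM in Kit-W/sh (median 2352). Kit-W/sh was above all Kit-B6 samples before tumors and overlapped with them in tumors. The difference was 1.21 ± 0.43 in preneoplastic colon and -0.46 ± 0.27 in tumors, an interaction of -1.67 ± 0.51 (edgeR adjusted p = 0.66). Il18 fell by 2.02 between stages in Kit-W/sh (edgeR adjusted p = 0.000603), and the change of -0.36 in Kit-B6 did not pass (edgeR adjusted p = 0.393). Casp1 and Pycard, inflammasome parts upstream of Il18, had interactions of -0.36 and -0.78, neither at an unadjusted p under 0.05.

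The CXCR2 ligands, which draw neutrophils, had 5 negative and 2 positive interactions (median -0.47), with 1 at an unadjusted p under 0.05 (14.3%, beside 7.25% of all tested genes). Without Kit-W/sh preneoplastic sample 2 the direction of the list turned, with 4 of 7 positive, a median of 0.04 and none at an unadjusted p under 0.05. The member at an unadjusted p under 0.05 was Cxcl5, at 77.0, 63.5 and 20.2 CPM in Kit-B6 preneoplastic colon and 262 and 410.1 CPM in Kit-W/sh. In tumors it ran from 704 to 6544 CPM in Kit-B6 (median 5073), with Kit-B6 tumor 4 far below the others, and from 4078 to 11557 CPM in Kit-W/sh (median 9616). The Kit-W/sh average was higher at both stages, by 2.66 ± 0.71 in preneoplastic colon and 0.87 ± 0.41 in tumors on the log2 scale, and the interaction was -1.79 ± 0.82 (edgeR adjusted p = 0.66), or -2.02 without Kit-B6 tumor 4. Cxcl5 rose in both genotypes between stages, by 6.45 in Kit-B6 (edgeR adjusted p = 1.51e-05) and by 4.66 in Kit-W/sh (edgeR adjusted p = 0.000544). The 5 tested neutrophil receptor and granule genes were all positive, beside 50.2% of all tested genes, with none at an unadjusted p under 0.05. Fpr2, a neutrophil chemoattractant receptor, was nearest at 1.76 ± 0.86 (edgeR adjusted p = 0.66), and was 1.54 without Kit-B6 tumor 4, where it was lowest. The signs of Cxcr2 (0.27) and Cxcr1 (0.66) say little, both at an edgeR unadjusted p over 0.98. Without Kit-B6 preneoplastic sample 1, 4 of the 5 were positive.

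**Figure D4:**
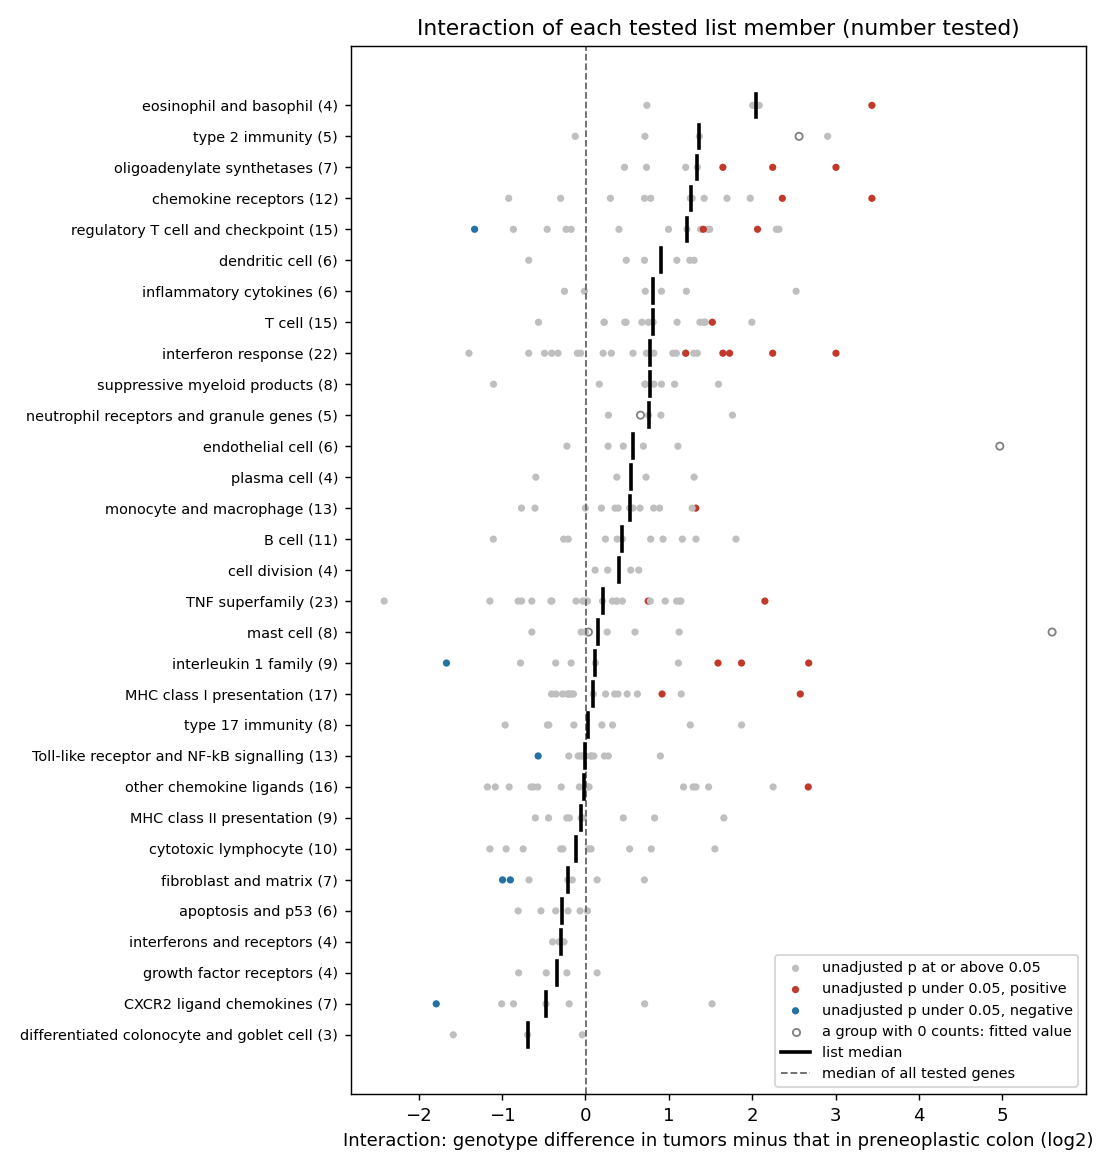
Interaction of every tested member of the gene lists with 3 or more tested genes (number tested in brackets), with the list median as a black bar and the median of all tested genes as a dashed line. The medians of the interferon response, T cell and chemokine receptor lists are 0.78, 0.81 and 1.27, most lists have members on both sides of 0, and no point passed the adjusted threshold; open points are fitted values of genes with a group at 0 counts, which have no meaningful size.

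Of the other positive genes, Rassf4 and St3gal1 were those with the smallest p. Rassf4, a Ras-association domain protein, was at 75.2, 145 and 200 CPM in Kit-B6 preneoplastic colon and at 50.6 and 102 CPM in Kit-W/sh, and at medians of 99.9 CPM in Kit-B6 tumors and 211 CPM in Kit-W/sh tumors. The tumor groups overlapped only through Kit-W/sh tumor 6 at 90.7 CPM, and the interaction was 1.79 ± 0.56 (edgeR adjusted p = 0.66). It rose between stages in Kit-W/sh by 1.36 (edgeR adjusted p = 0.0281), and the change of -0.43 in Kit-B6 did not pass (edgeR adjusted p = 0.341). St3gal1, a sialyltransferase, was at 93.5, 189 and 713 CPM in Kit-B6 preneoplastic colon and at 43.4 and 109 CPM in Kit-W/sh. Its interaction of 2.48 ± 0.78 (edgeR adjusted p = 0.66) was 1.24 without Kit-B6 preneoplastic sample 3, the highest library.

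Clcf1, a cytokine of the interleukin 6 family, rose between stages in both genotypes, by 1.14 in Kit-B6 (edgeR adjusted p = 0.0314) and 3.03 in Kit-W/sh (edgeR adjusted p = 0.000799), with an interaction of 1.89 ± 0.68 (edgeR adjusted p = 0.66), or 2.01 without the library labelled Kit-W/sh tumor 2, its lowest Kit-W/sh tumor. It gave only 5 counts in preneoplastic Kit-W/sh colon. Ebi3, the subunit shared by interleukins 27 and 35, was at 42.2, 49.0 and 51.2 CPM in Kit-B6 preneoplastic colon and at 25.3 and 22 CPM in Kit-W/sh, with tumor medians of 48.4 CPM in Kit-B6 and 59.7 CPM in Kit-W/sh. The preneoplastic groups were apart and the interaction was 1.31 ± 0.47 (edgeR adjusted p = 0.66). Acacb, the mitochondrial acetyl-CoA carboxylase, had 1.47 ± 0.54. The TNF receptor Tnfrsf1b had 0.75 ± 0.31, with 411 and 606 CPM in preneoplastic Kit-W/sh colon on either side of the 427 to 586 CPM of Kit-B6, and medians of 568 CPM in Kit-B6 tumors against 979 CPM in those of Kit-W/sh. The integrin Itgam, carried by myeloid cells, had 1.32 ± 0.57 (1.13 without Kit-B6 tumor 4, its lowest tumor) and rose between stages in both genotypes (edgeR adjusted p = 0.00061 in Kit-B6 and 0.000184 in Kit-W/sh).

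Among the genes with negative interactions, Gpc4, a glypican that presents growth factors at the cell surface, was at 838, 388 and 379.8 CPM in Kit-B6 preneoplastic colon and at 713 and 710.2 CPM in Kit-W/sh. Tumors held 731 to 1242 CPM in Kit-B6 (median 1086) and 589.8 to 790.4 CPM in Kit-W/sh (median 691). Kit-B6 preneoplastic sample 1 stood above both Kit-W/sh samples and the other two Kit-B6 samples below them, and in tumors 1 Kit-B6 sample lay inside the Kit-W/sh range. The interaction was -0.99 ± 0.34 (edgeR adjusted p = 0.66), and without that preneoplastic sample it was -1.51 and passed (edgeR adjusted p = 0.0179). Gpc4 rose by 0.95 between stages in Kit-B6 (edgeR adjusted p = 0.0045), and the change of -0.05 in Kit-W/sh did not pass (edgeR adjusted p = 0.884).

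Smad2, a transducer of TGF-beta and activin signals, was at 882, 764 and 769 CPM in Kit-B6 preneoplastic colon and 1223 and 1050.1 CPM in Kit-W/sh, and at medians of 1102 CPM and 1057 CPM in Kit-B6 and Kit-W/sh tumors. Acvr2b, an activin receptor, was at 56.8, 50.8 and 63.6 CPM in Kit-B6 preneoplastic colon and 85.0 and 89.5 CPM in Kit-W/sh, with tumor medians of 127 CPM and 115 CPM. For both genes Kit-W/sh was above all Kit-B6 samples before tumors and overlapped with them in tumors. Their interactions were -0.59 ± 0.21 and -0.90 ± 0.35 (edgeR adjusted p = 0.66 for both). Both rose between stages in Kit-B6, Smad2 by 0.46 (edgeR adjusted p = 0.0146) and Acvr2b by 1.30 (edgeR adjusted p = 0.000608), and neither passed in Kit-W/sh.

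Fgf18, a fibroblast growth factor, was at 14.7, 10.9 and 4.65 CPM in Kit-B6 preneoplastic colon and at 21.7 and 22 CPM in Kit-W/sh, and at medians of 28.3 CPM in Kit-B6 tumors and 12.9 CPM in Kit-W/sh tumors. The order of the genotypes was thus opposite at the 2 stages, with an interaction of -2.28 ± 0.86 (edgeR adjusted p = 0.66) resting on 17 and 28 preneoplastic counts. Fgf18 rose by 1.78 in Kit-B6 (edgeR adjusted p = 0.0266) and the change of -0.50 in Kit-W/sh did not pass (edgeR adjusted p = 0.522). Cat, the peroxide-degrading enzyme catalase, had its difference in tumors, at 890.4 to 1219.6 CPM in Kit-B6 and 667 to 925 CPM in Kit-W/sh, with an interaction of -0.59 ± 0.23. Inpp4b, a phosphoinositide phosphatase, had -1.14 ± 0.45, and the sulfotransferase Chst2 -1.39 ± 0.57. Lrba, Acpp, Myo6 and 2610507B11Rik had interactions between -1.59 and -0.56, that of Myo6 being -0.68, or -0.52 without Kit-B6 tumor 4, its highest tumor. Among the 7 tested fibroblast and matrix genes, 5 were negative (median -0.21), but without Kit-W/sh preneoplastic sample 2 the median was 0.32 with 4 of 7 positive. In the fit of all samples Gpc4 and the transcription factor Zeb1 (-0.90 ± 0.41) were at an unadjusted p under 0.05 (28.6%, beside 7.25% of all). The Zeb1 interaction moved with its preneoplastic Kit-W/sh values of 192 and 374 CPM: it was -1.30 without the first and -0.34 without the second. Zeb1 also had a tumor difference of -0.72 ± 0.22 in DESeq2 (DESeq2 adjusted p = 0.0494).

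**Figure D5:**
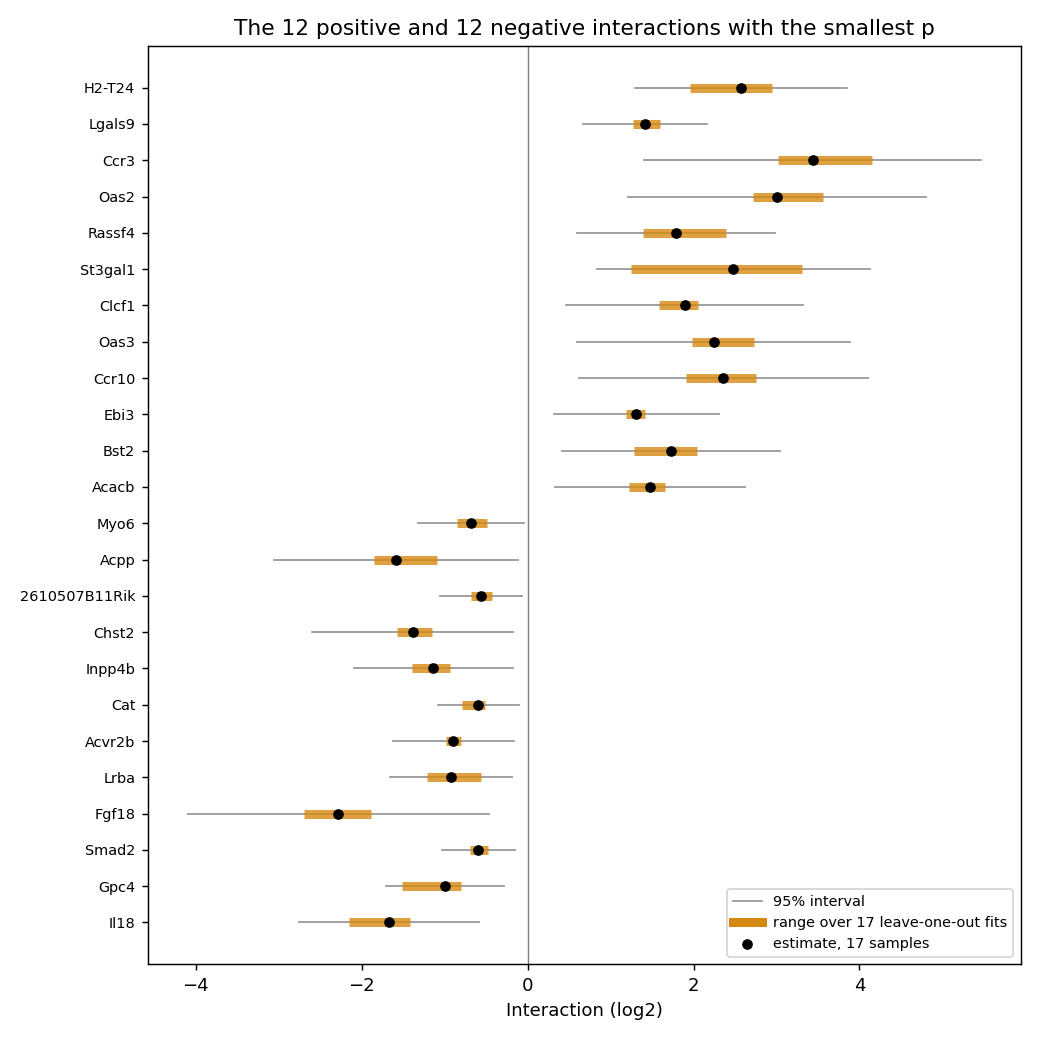
Interaction (log2) of the 12 positive and 12 negative genes with the smallest p: point, estimate from 17 samples; thin line, 95% interval; orange bar, range over the fits that leave out 1 sample each. Every orange bar stays on its side of 0, with the widest for St3gal1 (1.24 to 3.31).

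Kit itself showed no change of the genotype difference that passed. It was at 268, 343 and 521 CPM in Kit-B6 preneoplastic colon and at 127 and 113 CPM in Kit-W/sh, and at 93.7 to 473 CPM in Kit-B6 tumors (median 153) and 48.9 to 258 CPM in Kit-W/sh tumors (median 80.0). The Kit-W/sh average was lower at both stages, with log2 differences of -1.66 ± 0.69 in preneoplastic colon and -1.06 ± 0.43 in tumors, and the interaction was 0.59 ± 0.82 (edgeR adjusted p = 0.894). Without the library labelled Kit-W/sh tumor 2 it was 0.10.

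None of the 8 tested mast cell genes was at an unadjusted p under 0.05, with 5 positive and 3 negative (3 of 8 positive without the library labelled Kit-W/sh tumor 2, and 7 of 8 without Kit-B6 tumor 5). The protease Cpa3 gave 10 counts in all in preneoplastic Kit-B6 colon and none in the 2 Kit-W/sh libraries of that stage, and Tpsab1, a tryptase, gave 0 in all 5, so no interaction can be sized for either. The tryptase Tpsb2 had 0.26 ± 2.02, and -1.36 without the library labelled Kit-W/sh tumor 2. The chymase Cma1 had an interaction close to 0 with a standard error of 1.40, Gata2 had -0.05 ± 0.83, and their signs differed between scalings or left-out libraries. Hdc, which makes histamine and is also made by myeloid cells, was at 7.26 to 12.8 CPM in Kit-B6 and 7.24 to 16.5 CPM in Kit-W/sh preneoplastic colon, and at medians of 57.3 CPM and 159 CPM in tumors. Its interaction was 1.12 ± 0.71 (edgeR adjusted p = 0.766), and it rose between stages in both genotypes, by 2.72 in Kit-B6 (edgeR adjusted p = 0.000526) and by 3.84 in Kit-W/sh (edgeR adjusted p = 0.000287).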

How the data were processed

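Amplified panel RNA was sequenced from 17 colon samples on a MiSeq with a QIAseq targeted panel of mouse immuno-oncology genes, as the labels' protocols state. The authors deposited whole-number counts per gene, 1 table per sample with 2 header lines; whether reads or molecular tags were counted, and the aligner and filters, are not given in the sources used here. The submitters' processing notes name mm9 and DESeq2. The 5 control amplicons had 0 counts in every library and were left out, and 22 of 988 genes had 0 counts throughout. Library totals were 616009 to 1399902 counts; 3 counts, taken as the floor, correspond to 2.14 to 5.50 CPM, and this covers counting error only.

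In R 4.3.3, edgeR 4.0.16 fitted 4 groups in 1 model (TMM scaling, filterByExpr with minimum count 10 and minimum total 15, robust quasi-likelihood F test, two-sided, Benjamini-Hochberg over 869 genes, threshold 0.05). Intervals are 95%, and standard errors come from the fitted information scaled by the quasi-dispersion; 12 genes with a group at 0 have none. Alternatives were RLE, upper-quartile and no scaling, no filter, DESeq2 1.42.0, limma 3.58.1 voom with quality weights, a non-robust fit, a replicate block, and leaving out each library. Named genes are the mast cell list, the 12 positive and 12 negative genes with the smallest p, and the 2 smallest p per list; further genes in the text were picked with their values in view. The comparison, members and lists were chosen with earlier results of these data known. The fit was tested on simulated data. Within groups, no 2 libraries agreed within counting noise (lowest chi-square per degree of freedom 13.0). Promoter sequences are RefSeq's (GRCm38.p6); amplicon positions were not used here, and 1 interferon response gene is counted but not reported by name.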

Additional observations from a re-analysis of the deposited data

Results flagged for a closer look

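In groups of 6 tumors, 15 of 161 group values of named genes had 1 sample far from the others (9.32%), where chance gives about 1 in 20. Kit-B6 tumor 4 held 7 of them: it was lowest for Fpr2 (14.4 CPM), Cxcl5 (704), Il33 (169), Csf2 (1.03), Itgam (45.3) and Ccr2 (8.23), and highest for Myo6 (3873). The library labelled Kit-W/sh tumor 2 was highest for the mast cell genes Tpsab1 (54.0) and Ms4a2 (27.8) and lowest for Clcf1 (18.5). Single values stood apart for Ccr3 in Kit-B6 tumor 1 (1.62, low), Rassf4 in Kit-W/sh tumor 6 (90.7, low), Hpgds in Kit-B6 tumor 5 (525, high), H2-Eb2 in Kit-B6 tumor 2 (123, high) and Hells in Kit-B6 tumor 3 (517, high). With both Kit-B6 tumor 4 and the library labelled Kit-W/sh tumor 2 left out, a choice made after seeing the data, edgeR called 0 interactions, with 39 positive and 29 negative genes at an unadjusted p under 0.05.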

How the results depend on the processing

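edgeR called 0 interactions under RLE, upper-quartile and no scaling, without the filter, without robust estimation, and in limma-voom, and DESeq2 called 1. Leaving out each library gave 0 to 2 interaction calls: 2 (Gpc4 and H2-T24, 98 genes at an unadjusted p under 0.05) without Kit-B6 preneoplastic sample 1 and 0 without any other. The unadjusted count of 63 was 32 without Kit-B6 preneoplastic sample 2, 37 without sample 3, and 27 and 42 without Kit-W/sh preneoplastic samples 1 and 2, each of which leaves 1 sample assumed to vary like the other groups. For the genotype difference in tumors, DESeq2 called 31 genes and the leave-one-out range was 0 to 32, with 32 without the library labelled Kit-W/sh tumor 2. In preneoplastic colon DESeq2 called 6, a fit of that stage alone called 1 (Irf7), and the leave-one-out range was 0 to 2. H2-T24 passed in DESeq2 (2.57). The sign was opposite for Tpsb2 in limma-voom (-0.70) and with Kit-B6 tumor 4 and the library labelled Kit-W/sh tumor 2 both left out (-1.54), and for Cma1 under RLE (0.00108), no scaling (0.0457), upper-quartile scaling (0.15) and DESeq2 (0.00975). Leave-one-out ranges crossed 0 for Tpsb2 (-1.36 to 1.57), Cma1 (-0.78 to 0.60), Gata2 (-0.60 to 0.52), Ppbp (-0.14 to 2.42) and Gzma (-1.53 to 0.0149). The cause of these changes was not tested. With the replicate number as a block, edgeR called 0 interactions (45 positive and 11 negative at an unadjusted p under 0.05), and Gata2 became 0.22. Same-numbered samples correlated in their deviations between -0.19 and 0.40, with 6 of 18 pairs over 0.1. Differently numbered samples were not correlated for comparison, so whether the numbers pair the samples was not settled. No scaling shifted the median interaction by more than 0.05 on the log2 scale. Genes near 3 counts per library, among them Ccr3, Clcf1, Il1a and Lag3 in preneoplastic Kit-W/sh colon, are limited by depth.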

Other observations

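Several lists not described above had no member at an unadjusted p under 0.05 for the interaction. Their tested members were positive in 5 of 6 dendritic cell genes (median 0.90), 7 of 8 products of suppressive myeloid cells (median 0.77), 4 of 6 inflammatory cytokines (median 0.81), 3 of 4 plasma cell genes (median 0.55) and 4 of 4 cell division genes (median 0.40). They were positive in 3 of 9 class II presentation genes (median -0.05), 4 of 8 type 17 genes (median 0.03), 1 of 6 apoptosis and p53 genes (median -0.28) and 1 of 4 growth factor receptors (median -0.35), beside a median of 0.00 and 50.2% positive over all tested genes. Among monocyte and macrophage genes 10 of 13 were positive (median 0.53) and Itgam was the 1 at an unadjusted p under 0.05 (7.69%, beside 7.25% of all tested genes). Some of these medians depended on 1 library. Without Kit-B6 preneoplastic sample 2 they were 0.54 for dendritic cell genes, 0.43 for inflammatory cytokines and 0.23 for cell division genes. Without Kit-W/sh preneoplastic sample 2 the cell division median was 0.20, and it was 0.25 without Kit-B6 preneoplastic sample 3. The plasma cell median was 0.28 without Kit-B6 preneoplastic sample 3 and 1.14 without Kit-B6 tumor 2. That of monocyte and macrophage genes was 0.24 without Kit-W/sh preneoplastic sample 1 and 0.85 without sample 2. The class II median ranged from -0.38 to 0.26 and the type 17 median from -0.14 to 0.25 over the fits that leave out 1 library. In those fits apoptosis and p53 genes had medians between -0.37 and -0.14, and growth factor receptors between -0.64 and -0.17.

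Some genes outside those lists were also at an unadjusted p under 0.05, and they are named after their values were seen. Emp1, an epithelial membrane protein, was at 1146, 8268 and 15232 CPM in Kit-B6 preneoplastic colon and at 1556 and 1404 CPM in Kit-W/sh, with tumor medians of 1434 CPM and 939 CPM. Kit-B6 sample 1 lay below both Kit-W/sh samples and the other two far above them. Its interaction was 1.69 ± 0.77 (edgeR adjusted p = 0.66). Its preneoplastic difference of -2.47 ± 0.65 did not pass in edgeR (adjusted p = 0.451), passed in DESeq2 (-2.47, adjusted p = 0.0254), and passed in edgeR without Kit-B6 preneoplastic sample 1 (-2.98, adjusted p = 0.0119). The mucin Muc1 was at 78.8, 45.4 and 20.2 CPM in Kit-B6 preneoplastic colon and at 137 and 139 CPM in Kit-W/sh, with tumor medians of 239.9 CPM and 336 CPM. Its interaction was -1.35 ± 0.63 (edgeR adjusted p = 0.66), with Kit-W/sh above all Kit-B6 samples before tumors and overlapping in tumors.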
